A study of Mus musculus with 9 samples.

Results

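These results describe the gene expression of young wild-type (WT) mouse haematopoietic stem cells by themselves, in the 3 libraries labelled young among the 9 libraries of a study of Sphk2 and the ageing of these cells. The 3 libraries were chosen by label alone, and no library of another age or genotype enters any value below. The labels give the mice as wild type and aged 2 months, and list no treatment or strain. Marrow was flushed from thigh and shin bones, and red cells were lysed. Each library began with 1000 cells sorted as lineage-negative, positive for Sca1 and c-Kit, negative for CD48 and positive for CD150. Reverse-transcribed cDNA was given a poly(A) tail, amplified for 13 PCR cycles and read as pairs of 150 bases. The labels call the 3 libraries technical replicates and name no mouse, sex, litter or day, so the spread given here is that between these libraries and may be technical.

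Haematopoietic stem cells are rare marrow cells that renew themselves and give rise to every blood lineage. Most of them rest outside the cell cycle in adult marrow, and a small circle of transcription factors, with Gata2, Runx1, Tal1, Hlf and Mecom among them, maintains their identity. The sort used here rests on surface proteins: c-Kit is the receptor for stem cell factor, Sca1 is the product of Ly6a, CD150 is the product of Slamf1, and CD48 marks progenitors further along.

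The libraries held 74021822, 28088637 and 31031106 counts in genes. Levels are given as CPM, which scale each library's counts to the same total over genes, where libraries are compared. Where genes are compared they are given as the mean TPM of the 3 libraries, which also divides by exon length. A background was read from 1122 olfactory receptor genes, which marrow is not known to use, and amounted to 1.18, 1.09 and 1.43 reads per kilobase of exon in libraries 1, 2 and 3. To be called above background in a library, a gene needed 20 counts or more and 5 times that density or more. Of 21819 protein-coding genes, 7908, 8122 and 7379 passed in the 3 libraries. Library 1 was by far the deepest and passed fewer genes than library 2 and more than library 3, and it kept 7161 when thinned to 28088637 counts.

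Only a part of these genes was shared. Of the 21819 protein-coding genes, 5433 (24.9%) were above background in all 3 libraries, 2295 (10.5%) in exactly 2, 2520 (11.5%) in exactly 1 and 11571 (53.0%) in none, so that 47.0% passed somewhere. No library stood apart as the source of the genes seen in 1 library only: 906, 951 and 663 of them came from libraries 1, 2 and 3. Of the 11571 genes above background in none, 1355 had 0 counts in every library. The rule is sharp while the data are not. Fkbp7, Fancl and Jkamp, which lay just inside it, had 20 counts in their lowest library, and Tcf4, Gfm1 and Tbk1 lay just outside, Tbk1 with 23 counts in library 1 and 152.8 CPM in library 2. Genes whose exons mostly overlap another gene seldom passed: of 238 with under 10% of their exon bases to themselves, 230 were above background in none. The strand setting of the counting is not given in the sources used here, so a gene and an antisense partner could not be told apart.

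The genes of the sort gate were present at very unequal levels. Kit had 584, 483 and 449 CPM and was the highest of the 14 gate and antibody genes per length (121 TPM). Ly6a, which encodes Sca1, had 26.8, 21.6 and 4.67 CPM, and Slamf1, which encodes CD150, had 0.757, 12.5 and 8.83 CPM. These 3 genes were above background in every library, but the highest and lowest libraries differed by 1.30 times for Kit, 5.74 times for Ly6a and 16.5 times for Slamf1. Ptprc, the common leukocyte antigen CD45, was above background in 2 libraries, with 102, 3.13 and 4.77 CPM. Cd48, whose protein was selected against, was above background in library 2 only, at 8.69 CPM against 0.0811 CPM in library 1 and 0 counts in library 3. In bulk libraries such as these, a few cells with much RNA and many cells with little cannot be told apart.

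Of the markers set for the cell type, Hlf and Kit were abundant and Mecom was not. Hlf, a leucine zipper factor known for its role in stem cell maintenance, had 372, 208 and 427 CPM. Mecom, a zinc finger factor of long-term stem cells, had 19.4, 2.10 and 1.45 CPM and was above background in library 1 only. The label thus met 4 of its 5 markers above background in all libraries, and Mecom in 1. These calls depend on the rule, whose cut-off rises with exon length. Mecom had 59 and 45 counts in libraries 2 and 3, against cut-offs of 67.9 and 88.6. Slamf1 passed in library 1 with 56 counts against 36.3. Under a rule of at least 1 CPM in every library, Mecom would pass and Slamf1 would not. Antibody targets used to remove mature cells lay at the other end: Cd3e, Cd8a, Cd8b1, Itgam, Ly6g and Il7r were above background in no library, with at most 0.356 CPM. Cd4 was above background in library 1, with 0.621, 0.320 and 0.0645 CPM.

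**Figure D1:**
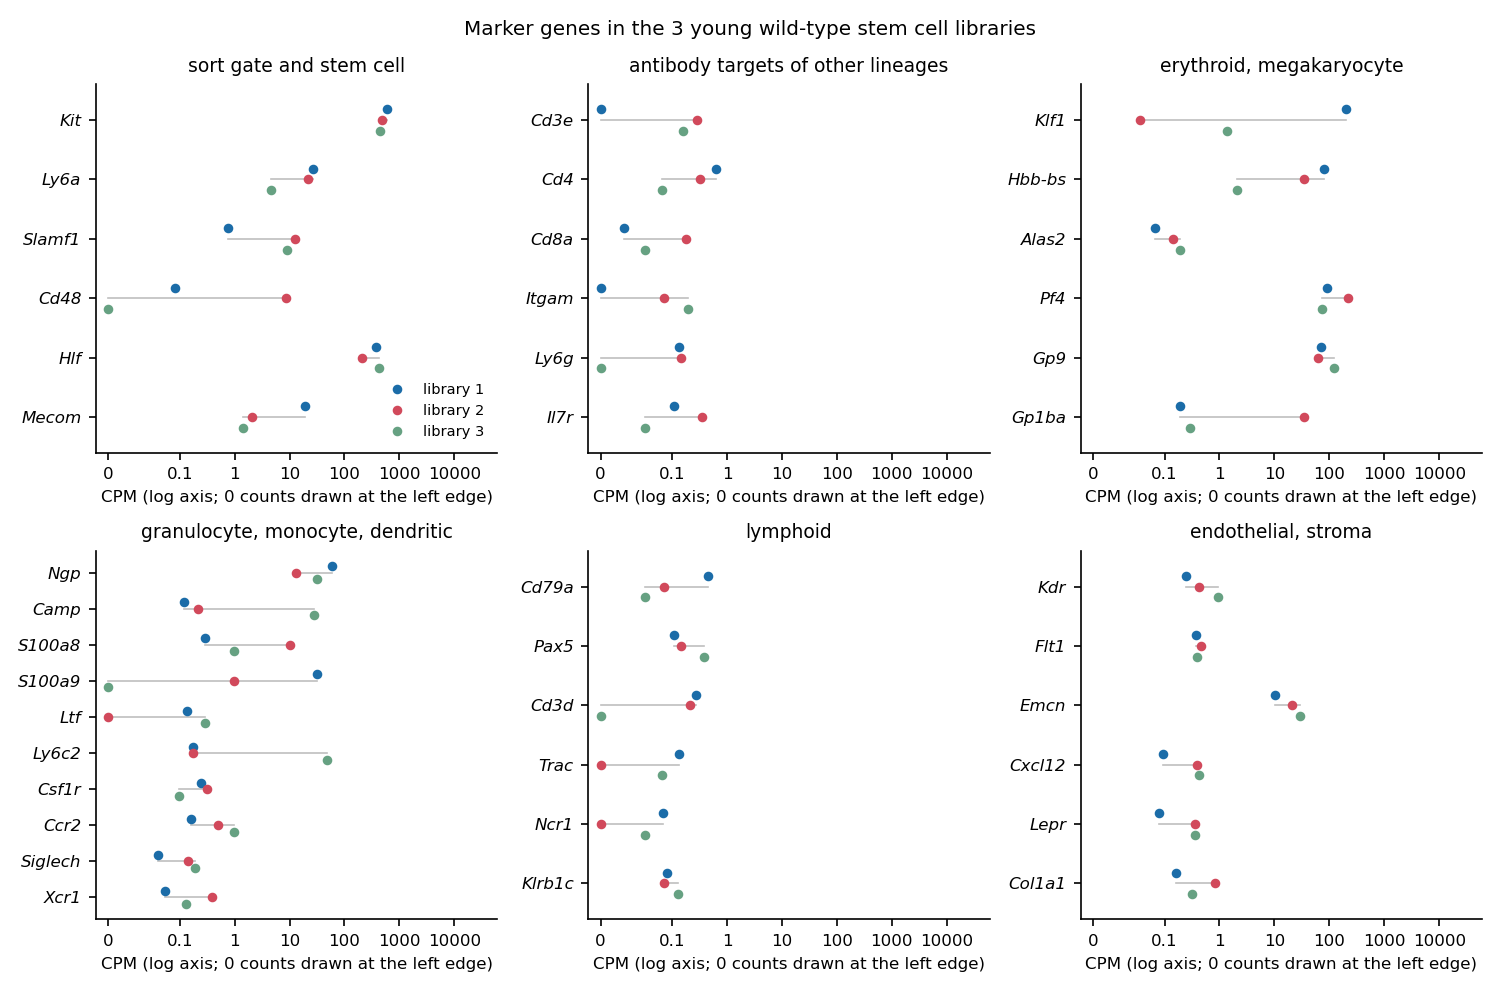
CPM of sort and stem cell markers and of markers of other cell types in each of the 3 young WT libraries, on a log axis, with 1 row per gene and grey lines from the lowest to the highest library. Kit and Hlf sat above 200 CPM in every library, Slamf1 spread from 0.757 to 12.5 CPM, and the antibody targets of mature lineages stayed under 1 CPM.

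Other surface proteins used to refine stem cell gates were mostly present. Of 25, 16 were above background in all libraries (64.0%, against 24.9% of protein-coding genes), 3 in 2, 3 in 1 and 3 in none. Ly6e, a lipid-anchored relative of Sca1, led them per length (475 TPM) with 621, 999 and 928 CPM. The tetraspanin Cd9 followed at 221 TPM, then Cd27 at 186 TPM. Among these 3, Cd27 was the least even, with 449, 112 and 38.5 CPM. Procr, the endothelial protein C receptor EPCR, had 145, 52.7 and 41.2 CPM, and Cd34 had 187, 188 and 161 CPM. Tek, the angiopoietin receptor, was at 0.648 CPM in library 1 and at 72.8 and 134 CPM in the other two. Clec1a, a lectin-like receptor, had 17189 counts in library 1 and 1 and 16 counts in libraries 2 and 3. Jam2, Slamf6 and Cdh5 were above background in none.

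Most transcription factors of stem and progenitor cells were above background in all libraries, at levels that differed between them. Of 34, 25 were above background in all (73.5%, against 24.9% of protein-coding genes), 4 in 2, 3 in 1 and 2 in none. The range between libraries was within 2-fold for 7 of the 25 and at least 10-fold for 4. Lmo2, a bridging protein of the Tal1 and Gata complexes, was highest per length (666 TPM), and Gata2, a zinc finger factor required for stem cells, came next (396 TPM). Lmo2 had 786, 641 and 603 CPM, and Gata2 had 1081, 862 and 1071 CPM. Both stayed within a 2-fold range. Lyl1 and Gfi1b followed at 224 and 161 TPM. Gfi1b was less even, with 230, 118 and 63.5 CPM. Runx1 (178, 239 and 208 CPM) also stayed within a 2-fold range. Erg, an ETS factor, was at 0.0946, 40.3 and 3.71 CPM, and Hoxb5 was at 0.0675, 37.3 and 12.9 CPM. Gfi1 and Sox17 were above background in no library. Gfi1 is a repressor that restrains stem cell division, and Sox17 is known as a factor of fetal stem cells.

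Genes that others have reported as selective for long-term stem cells were a mixed set. Of 31, 21 were above background in all libraries (67.7%, against 24.9% of protein-coding genes), 6 in 2, 3 in 1 and 1 in none. In 7 of the 21 the highest library was at least 10 times the lowest. Ifitm3, an interferon-induced membrane protein, led per length (1040 TPM), followed by Ifitm1 (724 TPM), Myct1 (317 TPM) and Krt18 (212 TPM). Ifitm3 had 477, 302 and 207 CPM, and Myct1 had 590, 477 and 196 CPM. Fgd5, an exchange factor for small GTPases used as a stem cell reporter gene, had 0.230, 46.5 and 0.483 CPM. Vwf, the von Willebrand factor, was above background in all libraries at 16.3, 51.9 and 14.4 CPM. Ramp2 was the member above background in none, with 1 count in library 1 and 0 in the others.

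The promoters of genes above and not above background differed in base content. RefSeq start sites (GRCm38.p6) were matched for 16477 of 21814 protein-coding symbols, and the 250 bases before the first listed start site were searched. Promoters of the 4373 matched genes above background in all libraries held a median of 17 CG dinucleotides (quartiles 11 and 23). That median was 16 for 1807 genes above background in 2 libraries, 14 for 1972 in 1 library and 4 for 8325 in none (quartiles 1 and 11). The median over all was 10, and the share of C and G was 60.4% in the first class against 50.4% in the last. These are descriptions over genes, which are not replicates, and no test was made. The letters TATAAA, on either strand, stood in 5.81% of promoters of genes above background in all libraries and in 17.8% of those above background in none, against 11.9% of all. The letters GGGCGG stood in 62.9% and 28.8% of these classes, against 44.3% of all, and CCGGAAGT, a site of ETS factors, in 6.75% and 1.74%, against 4.03% of all. In all 8 motifs were searched on both strands, and the others are given with the immediate early and heat shock genes.

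**Figure D2:**
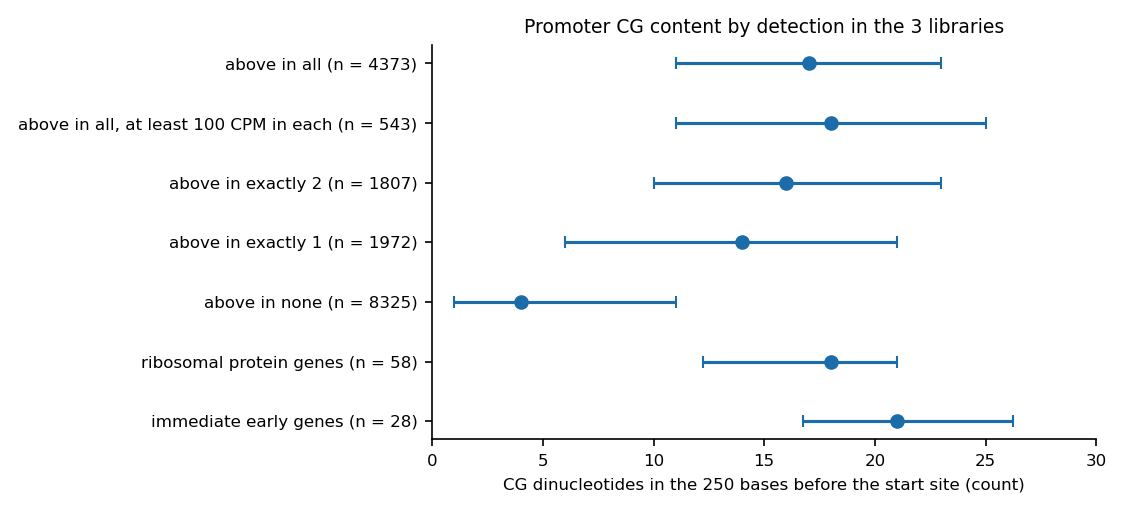
Number of CG dinucleotides in the 250 bases before the start site, as the median (point) and quartiles (bars) over genes of each detection class and of 2 gene lists. The median fell from 17 in genes above background in all libraries to 4 in genes above background in none.

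The contrast can be read in single promoters of the genes above. The first 3 of the sequences below belong to abundant stem cell genes, Spns2 is an abundant gene with few CG, and the last 3 belong to antibody targets of mature cells that were above background in no library. They were picked after their values were seen, and capitals mark CG. Positions are chr5:75574737-75574986 (Kit, + strand), chr6:88193641-88193890 (Gata2, + strand), chr11:90390918-90391167 (Hlf, - strand), chr11:72475028-72475277 (Spns2, - strand), chr15:9529877-9530126 (Il7r, - strand), chr6:71373177-71373426 (Cd8a, + strand) and chr15:75155011-75155260 (Ly6g, + strand), all upstream of the start site in GRCm38.p6.
Kit: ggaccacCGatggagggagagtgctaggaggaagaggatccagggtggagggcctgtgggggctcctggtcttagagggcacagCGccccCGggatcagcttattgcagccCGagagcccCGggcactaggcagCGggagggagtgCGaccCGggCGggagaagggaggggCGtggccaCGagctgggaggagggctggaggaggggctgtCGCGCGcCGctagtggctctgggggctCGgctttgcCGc
Gata2: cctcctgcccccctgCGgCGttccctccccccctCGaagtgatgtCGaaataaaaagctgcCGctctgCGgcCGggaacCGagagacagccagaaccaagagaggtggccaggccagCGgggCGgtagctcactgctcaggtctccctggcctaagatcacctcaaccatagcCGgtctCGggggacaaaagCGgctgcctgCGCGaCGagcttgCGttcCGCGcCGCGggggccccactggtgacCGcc
Hlf: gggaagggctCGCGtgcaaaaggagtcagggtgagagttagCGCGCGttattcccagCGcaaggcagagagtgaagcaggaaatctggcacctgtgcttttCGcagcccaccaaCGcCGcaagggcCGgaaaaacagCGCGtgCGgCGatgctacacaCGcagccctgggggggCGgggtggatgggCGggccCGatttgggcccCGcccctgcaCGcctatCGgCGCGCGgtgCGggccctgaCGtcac
Spns2: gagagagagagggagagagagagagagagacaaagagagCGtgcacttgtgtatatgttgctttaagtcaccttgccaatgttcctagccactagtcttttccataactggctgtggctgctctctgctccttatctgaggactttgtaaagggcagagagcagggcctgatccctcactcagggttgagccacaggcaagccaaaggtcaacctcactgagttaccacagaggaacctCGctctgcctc
Il7r: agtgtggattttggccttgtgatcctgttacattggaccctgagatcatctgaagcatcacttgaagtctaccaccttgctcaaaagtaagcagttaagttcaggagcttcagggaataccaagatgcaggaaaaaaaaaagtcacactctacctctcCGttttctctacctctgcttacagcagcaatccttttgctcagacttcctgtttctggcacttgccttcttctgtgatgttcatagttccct
Cd8a: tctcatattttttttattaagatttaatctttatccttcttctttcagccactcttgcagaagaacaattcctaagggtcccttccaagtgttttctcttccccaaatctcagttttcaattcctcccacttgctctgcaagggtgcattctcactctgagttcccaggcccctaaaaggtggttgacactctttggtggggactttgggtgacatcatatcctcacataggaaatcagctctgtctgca
Ly6g: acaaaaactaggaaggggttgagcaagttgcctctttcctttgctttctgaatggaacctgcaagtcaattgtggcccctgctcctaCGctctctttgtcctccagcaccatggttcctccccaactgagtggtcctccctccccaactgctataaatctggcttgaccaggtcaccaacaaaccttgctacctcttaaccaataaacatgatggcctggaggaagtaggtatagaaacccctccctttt
They hold 17, 22, 26 and 2 CG in Kit, Gata2, Hlf and Spns2, and 1, 0 and 1 CG in Il7r, Cd8a and Ly6g.

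Marker lists of mature blood lineages fell on either side of the 24.9% of protein-coding genes that were above background in all libraries. The megakaryocyte (64.3%), erythroid (46.7%), dendritic (41.7%) and neutrophil (33.3%) lists lay above it, and the monocyte, mast cell, B, T and NK cell lists lay at 6.25% to 9.09%. Differences between lists were not tested. Among 15 erythroid genes, 7 were above background in all libraries, 4 in 2 and 4 in none. Car2, carbonic anhydrase 2, made up 67.7% to 86.5% of that list's summed TPM, and had 2366, 1494 and 1351 CPM. Haemoglobin was low: Hbb-bs had 78.7, 34.7 and 2.13 CPM, Hba-a1 had 38.1, 20.01 and 27.6 CPM, and haemoglobin genes as a whole took 0.00700% ± 0.00479 of counts (SD, n = 3). Klf1, the erythroid master factor, had 198 CPM in library 1 and 0.0356 and 1.35 CPM in the others. Alas2 and Slc4a1, which mark maturing red cells, were above background in none.

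Of 14 megakaryocyte genes, 9 were above background in all libraries, 2 in 1 and 3 in none. Rap1b, a small GTPase, led at 526 TPM with 749, 883 and 505 CPM, and the platelet chemokine Pf4 followed at 377 TPM with 90.7, 218 and 74.5 CPM. Gp9, a subunit of the von Willebrand factor receptor, had 69.9, 62.3 and 121 CPM, while its partner subunit Gp1ba had 0.189, 34.7 and 0.290 CPM. Several of these genes, such as Cd9, Itga2b and Vwf, are also in the stem cell lists above. Tubb1, the platelet tubulin, had 0 counts in all libraries, which allows up to 0.0405, 0.107 and 0.0967 CPM in libraries 1, 2 and 3. This floor of 3 counts covers counting error only.

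In the neutrophil list 1 gene held most of the level. Of 15 neutrophil genes, 5 were above background in all libraries, 1 in 2, 3 in 1 and 6 in none. Prtn3, the granule protease proteinase 3, held 74.7% to 85.0% of that list's summed TPM, with 719, 493 and 539 CPM, and its range stayed within 2-fold. Mpo, myeloperoxidase, had 1.32, 14.5 and 102 CPM, and Ngp had 59.9, 12.9 and 31.2 CPM. S100a9, an abundant neutrophil protein, had 31.0 and 0.961 CPM in libraries 1 and 2 and 0 counts in library 3, and Camp had 28.4 CPM in library 3 alone. Cebpe had 0 counts in all libraries, and Ltf, Lcn2 and Ly6g were above background in none. Of 16 monocyte and macrophage genes, 10 were above background in none, and Lyz2, lysozyme, was the only member above background in all, with 265, 187 and 283 CPM. Cd68 and Vcam1 passed in library 2 only (46.4 and 25.7 CPM) and Ly6c2 in library 3 only (47.9 CPM). Csf1r and Ccr2 were above background in none.

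Of 12 dendritic genes, 5 were above background in all, and these were Cd74, H2-Ab1, H2-Aa, H2-Eb1 and Bst2, the first 4 of which belong to MHC class II presentation. Siglech, Xcr1, Clec9a and Itgax were above background in none. Of 11 mast cell, basophil and eosinophil genes, 9 were above background in none, and Gata1, which erythroid cells share, was the member above background in all (170, 16.9 and 3.67 CPM). Of 15 B cell genes, Cd79b alone was above background in all (80.9, 6.37 and 9.02 CPM), 1 was in 2, 6 in 1 and 7 in none, with Pax5 and Ebf1 among the last. All members that passed in 1 library did so in library 1, the deepest, and the highest of them, Jchain, had 7.84 CPM there. Of 14 T cell genes, 11 were above background in none and Lck in all (0.324, 11.4 and 25.0 CPM). Of 12 NK and innate lymphoid genes, 10 were above background in none and Nkg7 in all (79.4, 162 and 76.1 CPM).

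Of the niche cells, endothelial genes were above background in all libraries more often than stroma genes (30.8% and 6.25% of the lists), a difference that was not tested. The endothelial share was near the 24.9% of all protein-coding genes. Of 13 endothelial genes, 8 were above background in none, with Kdr, Flt1 and Cdh5 among them, and 4 in all. Egfl7 (149, 70.6 and 84.9 CPM) and Tie1 (68.7, 96.6 and 135 CPM) led. Pecam1, the adhesion molecule CD31, had 152 CPM in library 2 and 0.486 and 0.935 CPM in the others. Of 16 stroma, bone and fat genes, 14 were above background in none, with Cxcl12, Lepr, Kitl, Col1a1 and Adipoq among them. Runx2 was above background in all, with 95.6, 49.2 and 38.3 CPM, and Pdgfrb, a growth factor receptor of stroma, in library 2 only (3.74 CPM). The summed CPM of the lists lay between 43.2 and 97.5 for stroma, 2.27 and 26.4 for T cells, 11.7 and 99.2 for B cells, 270 and 335 for monocytes and 598 and 843 for neutrophils. The part of other cells in any level above was not tested.

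Translation took the largest share of the RNA. The 79 ribosomal protein genes held 26.7% ± 0.977 of counts in genes (SD, n = 3), and 78 of them were above background in all libraries. Their range was within 2-fold for 76, against 20.8% of the 5433 protein-coding genes above background in all. Their median coefficient of variation (CV, SD over mean) was 16.3%, at a median level of 2771 CPM. The evenness of other abundant genes was not computed apart from ribosomal protein genes. The 134 protein-coding genes of 1000 CPM or more, ribosomal protein genes among them, had a median CV of 17.7%. In that band the ratio of highest to lowest library was 1.89 at the 90th percentile. Rplp1, an acidic protein of the ribosomal stalk, was the highest nuclear protein-coding gene per length (79065 TPM), with 12503, 18547 and 24984 CPM. Of the tissue-type paralogues in a list of 18, Rpl10l and Rpl3l were above background in none.

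Tpt1 and the elongation factors followed. Tpt1, the translationally controlled tumour protein, had 30432, 27819 and 40589 CPM and a mean of 29356 TPM, second only to Rplp1 among nuclear protein-coding genes. Eef1a1, which brings aminoacyl-tRNA to the ribosome, had 14968, 11478 and 9338 CPM, while its muscle and nerve paralogue Eef1a2 was above background in none. In a list of 16 translation factors that includes Tpt1, 14 were above background in all, and the list took 6.37% ± 0.465 of counts. Tpt1 alone held 50.1% to 65.4% of that list's summed TPM. B2m, the light chain of MHC class I, was the leading nuclear protein-coding gene outside translation at 12625 TPM, with 5662, 5746 and 3865 CPM. The mitochondrial genome took 2.84% ± 0.556 of counts. Within it mt-Co1 had 9378, 10531 and 7104 CPM, mt-Co2 10.01, 12.5 and 6.90 CPM and mt-Co3 24.3, 30.6 and 31.4 CPM. These 3 encode subunits of the same oxidase, and per length they stood at 12416, 30.6 and 77.8 TPM. On the same stretch of that genome as mt-Co2 and mt-Co3, the genes mt-Atp6, mt-Nd3 and mt-Nd4l were also low. Their means were 13.6, 54.4 and 11.5 CPM, while mt-Nd4, at the end of that stretch, had a mean of 4289 CPM. How well reads map to this stretch was not tested, so the levels of its genes are uncertain. The 100 genes with the highest mean CPM held 44.1% ± 0.208 of counts, and noncoding genes other than pseudogenes held 1.32% ± 0.0457.

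Immediate early genes were among the most abundant messages of these cells. They encode transcription factors and feedback regulators that cells transcribe within minutes of a stimulus, without new protein. Of 34, 32 were above background in all libraries (94.1%, against 24.9% of protein-coding genes) and 2 in 1, and the list took 4.45% ± 0.569 of counts. Ier2 led per length (5122 TPM), followed by Zfp36, an RNA-binding protein that destabilises messages (4096 TPM), Junb (3896 TPM) and Fos (3086 TPM). Zfp36 had 7872, 5474 and 6663 CPM, Junb 4586, 2931 and 5140 CPM, and Fos 3218, 3187 and 3852 CPM. Fosb, the AP-1 partner of the Jun proteins, had 3828, 4323 and 5657 CPM, and Egr1 had 4440, 3881 and 4613 CPM. Without library 3 Zfp36 was above Ier2. Library 3 held the highest CPM for Ier2, Junb, Fos, Fosb and Egr1, and library 1 the highest for Zfp36 and Dusp1. Among the 32, 20 had a highest library at most 2 times the lowest, and 3 at least 10 times. Nr4a3 (0.270, 0.890 and 31.8 CPM) and Egr2 (0.0270, 16.4 and 0.290 CPM) were above background in 1 library.

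**Figure D3:**
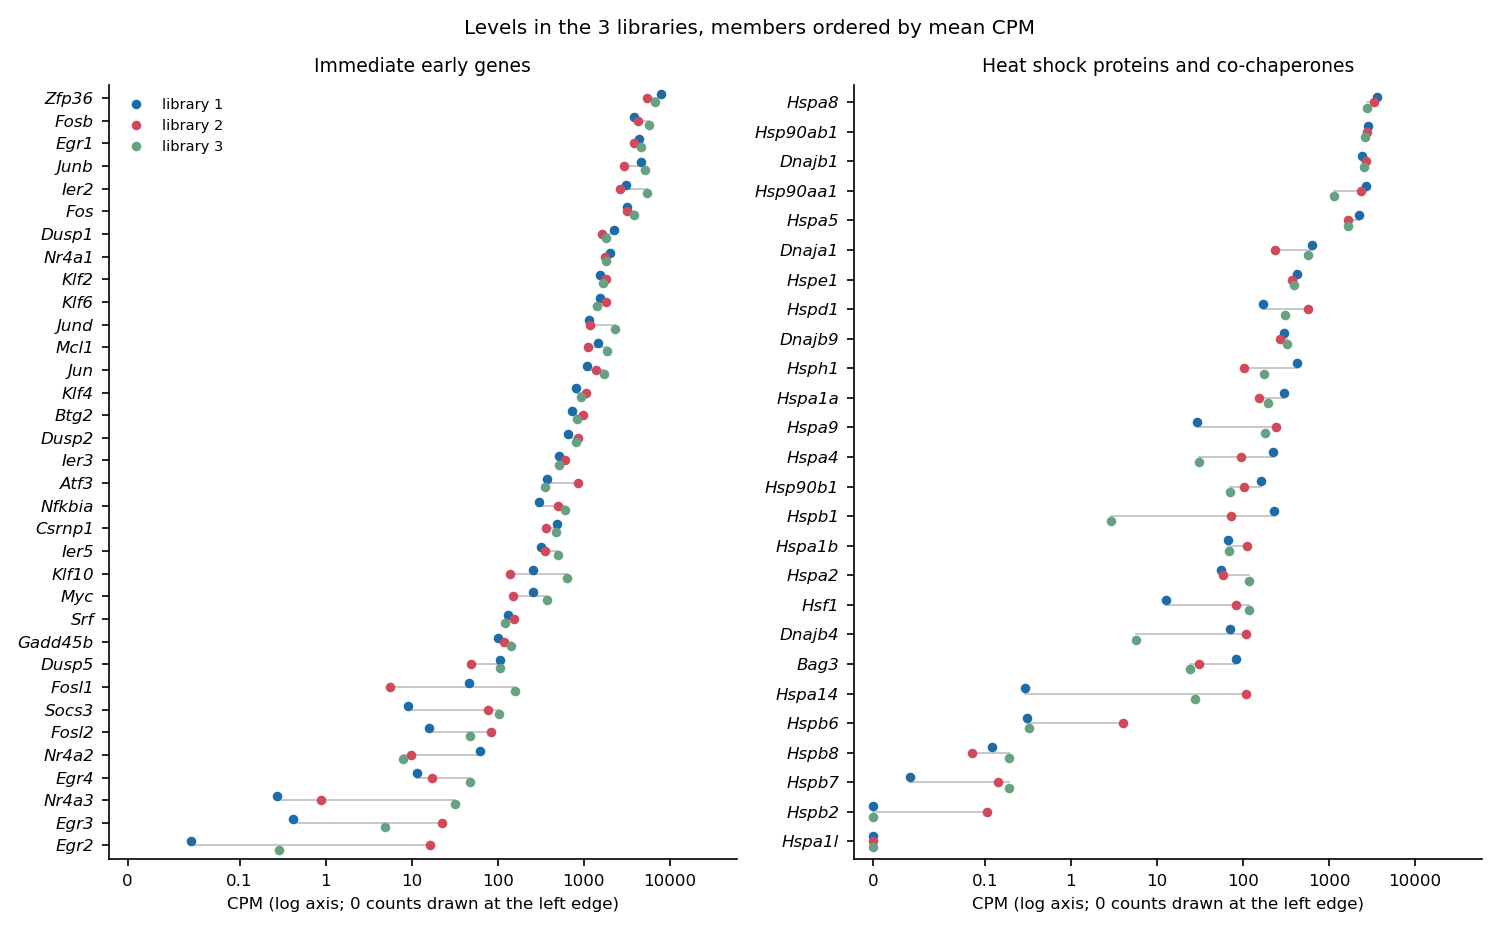
CPM of 34 immediate early genes (left) and 26 heat shock genes (right) in each of the 3 young WT libraries, on a log axis with 0 counts drawn at the left edge. The upper rows show 3 libraries close together above 1000 CPM, and the spread widens below about 100 CPM.

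Promoters of immediate early genes are known for response elements. The sequences of Fos, Fosb, Junb and Dusp1 were picked for holding the letters TGACG and that of Zfp36 for lacking them, all from the 9 genes of the list with the highest TPM. Capitals mark TGACG on either strand, the core of the cyclic AMP response element. They lie upstream of the start site at chr12:85473640-85473889 (Fos, + strand), chr7:19310046-19310295 (Fosb, - strand), chr8:84978749-84978998 (Junb, - strand), chr17:26508473-26508722 (Dusp1, - strand) and chr7:28379229-28379478 (Zfp36, - strand) in GRCm38.p6.
Fos: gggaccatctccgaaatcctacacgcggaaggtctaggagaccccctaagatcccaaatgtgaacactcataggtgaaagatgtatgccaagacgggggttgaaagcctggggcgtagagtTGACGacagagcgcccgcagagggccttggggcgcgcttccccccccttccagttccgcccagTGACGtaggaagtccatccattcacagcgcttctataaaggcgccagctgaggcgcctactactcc
Fosb: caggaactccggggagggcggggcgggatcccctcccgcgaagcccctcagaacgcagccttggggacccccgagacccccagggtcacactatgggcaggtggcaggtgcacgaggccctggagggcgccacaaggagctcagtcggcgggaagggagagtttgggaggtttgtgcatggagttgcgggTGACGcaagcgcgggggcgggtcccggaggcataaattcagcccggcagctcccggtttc
Junb: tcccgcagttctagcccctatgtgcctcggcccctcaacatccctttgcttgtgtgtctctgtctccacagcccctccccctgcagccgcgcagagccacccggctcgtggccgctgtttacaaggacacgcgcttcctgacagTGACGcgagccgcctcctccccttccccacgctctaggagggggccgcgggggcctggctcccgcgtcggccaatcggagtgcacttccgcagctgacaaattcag
Dusp1: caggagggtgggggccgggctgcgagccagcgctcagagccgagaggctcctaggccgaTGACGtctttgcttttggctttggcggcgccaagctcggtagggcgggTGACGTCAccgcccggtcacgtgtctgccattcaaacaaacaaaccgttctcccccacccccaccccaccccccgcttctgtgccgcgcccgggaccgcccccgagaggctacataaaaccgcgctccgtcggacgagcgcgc
Zfp36: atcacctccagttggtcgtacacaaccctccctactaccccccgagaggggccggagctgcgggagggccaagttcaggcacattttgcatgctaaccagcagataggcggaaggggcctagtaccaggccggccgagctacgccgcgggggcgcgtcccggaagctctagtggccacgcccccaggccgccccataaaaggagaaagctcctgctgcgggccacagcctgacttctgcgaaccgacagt
These windows hold 2, 1, 1, 3 and 0 matches. TGACG stood in 15 of the 28 immediate early promoters that RefSeq matched (53.6%) and not in the other 13, against 20.8% of all promoters and 30.9% of those of genes above background in all libraries. It was not particular to this list: 11 of 20 heat shock promoters (55.0%) and 25 of 58 ribosomal protein promoters (43.1%) held it. Of the 28 immediate early promoters, 2 held the full palindrome TGACGTCA, those of Dusp1 and Btg2, against 2.08% of all. The CArG box, bound by serum response factor, stood in 3 of the 28, against 1.38% of all. GGGCGG stood in 24 of the 28 (85.7%) and in 16 of 20 heat shock promoters (80.0%), against 44.3% of all. TGACG lies within TGACGTCA, so their matches overlap, and a match is no evidence of binding.

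Heat shock genes were likewise abundant. Of 26, 20 were above background in all libraries (76.9%, against 24.9% of protein-coding genes), 2 in 2 and 4 in none. The list took 1.53% ± 0.183 of counts. Hsp90ab1, a chaperone of signalling proteins, had 2813, 2753 and 2617 CPM and led per length (1935 TPM). Dnajb1, a co-chaperone induced by heat (1691 TPM), had 2406, 2718 and 2524 CPM, and Hspa8, the constitutive Hsp70 (1612 TPM), had 3661, 3337 and 2759 CPM. The inducible Hspa1a had 302, 156 and 196 CPM, and its near-identical copy Hspa1b had 66.6, 112 and 69.5 CPM, so counts of this pair are uncertain. Of the 20 promoters of this list that RefSeq matched, 5 held GAANNTTC, a pair of heat shock factor sites (25.0%, against 6.25% of all promoters), and 11 held CCAAT (55.0%, against 36.0% of all). Hspb2, Hspb7 and Hspb8 were above background in none. Hspa1l had 0 counts, with 28.1% of its exon bases to itself.

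Cell cycle genes were present in all libraries at moderate levels. Of 28 proliferation genes, 25 were above background in all (89.3%, against 24.9% of protein-coding genes), 2 in 2 and 1, Bub1, in 1. Pcna, the clamp of DNA polymerase, had 734, 739 and 382 CPM, and Stmn1, a tubulin regulator, had 541, 529 and 390 CPM. They stood at 551 and 540 TPM, and Stmn1 led without library 1 or library 2. Mki67 had 119, 86.9 and 104 CPM. Mitotic genes were less even: Cenpa had 237, 17.8 and 136 CPM, and Cdc20 9.28, 65.7 and 108 CPM. Of 9 cyclins, 5 were above background in all, led by Ccnd2 and Ccnd3 at 59.7 and 58.6 TPM, and Ccne1 was the member above background in none. All 4 cell cycle kinases were above background in all, with Cdk4 (292, 181.7 and 292 CPM) first per length and Cdk6 (465, 630 and 232 CPM) next.

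Among inhibitors of the cycle, Cdkn1a, which encodes p21, was highest, with 430, 515 and 570 CPM and 301 TPM. Cdkn1b, which encodes p27, had 101, 71.5 and 102 CPM. Cdkn1c, which encodes p57 and is known as a brake on stem cells, had 0.135, 42.4 and 0.290 CPM. Cdkn2a and Cdkn2b were above background in none, with at most 0.214 CPM. In the Bcl2 family of 18, 8 were above background in all and 6 in none, and the survival factor Mcl1 made up 75.6% to 79.9% of the family's summed TPM, with 1444, 1126 and 1860 CPM. Bcl2 itself had 144, 21.4 and 35.1 CPM.

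Of 38 cytokine receptors, 15 were above background in all libraries (39.5%, against 24.9% of protein-coding genes), 7 in 2, 6 in 1 and 10 in none, and in 9 of the 15 the range was at least 10-fold. Kit, described with the sort gate, was among the highest per length (121 TPM). Epor, the erythropoietin receptor, had 126, 8.37 and 84.7 CPM. Flt3, a receptor of multipotent progenitors, had 0.419, 3.81 and 72.1 CPM. Il7r, Csf1r and Il5ra were above background in none.

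Of 19 Notch, Wnt and Hedgehog receptors, 4 were above background in all (21.1%) and 10 in none, shares near the 24.9% and 53.0% of protein-coding genes. Smo, the Hedgehog transducer, had 42.2, 106 and 55.4 CPM, and Fzd8 had 73.2, 0.214 and 181.6 CPM. Of 26 integrin chains, 4 were above background in all (15.4%), namely Itga2b, Itgb1, Itga6 and Itga4, and 14 in none. Itga2b, the platelet chain CD41, had 206, 513 and 314 CPM. Of 19 chemokine receptors, 17 were above background in none. Cxcr4, the receptor that holds stem cells in the marrow, had 8.25, 12.6 and 33.6 CPM, and Cxcr5 passed with 0.270 to 0.838 CPM. Of 12 Toll-like receptors, 10 were above background in none, and Tlr4 passed in library 1 only (32.6 CPM).

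In several transcription factor families 1 member led. Gata2 took 73.7% to 95.7% of the summed TPM of 6 Gata factors, Gata1 and Gata3 varied between libraries, and Gata4, Gata5 and Gata6 were above background in none. Klf2, known for keeping lymphocytes quiescent, took 49.1% to 53.0% of the summed TPM of 17 Krueppel-like factors, with 1546, 1813 and 1668 CPM, followed by Klf6 and Klf4, and Klf5, Klf12, Klf14, Klf15 and Klf17 were above background in none. Id1 took 76.1% to 87.7% of the summed TPM of 4 inhibitors of DNA binding, with 645, 484 and 848 CPM. Myc had 256, 149 and 371 CPM, Mycn 21.9, 119 and 6.22 CPM, and Mycl was above background in none. Of the C/EBP list, Ddit3, a stress factor, had 234, 247 and 135 CPM, while Cebpa, required for granulocytes, was above background in library 3 only (19.6 CPM). In the other families Irf3, Stat5b, Smad7, Ikzf1, Cbfb and Foxo3 led by mean TPM, and 5 of 9, 5 of 7, 5 of 8, 2 of 5, 4 of 4 and 2 of 4 of their members were above background in all libraries. Not all of these leads were held in every library: Irf3 had 38.9, 216 and 68.1 CPM, and without library 2 Irf1 led in its place. Cbfb, the partner of the Runx proteins, had 176, 142 and 4.58 CPM. Of 8 Gimap genes, which encode GTPases of immune cells, 3 were above background in all and Gimap6 led.

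Hox genes were mostly at background. Of 39, 29 were above background in none, 2 in 1, 3 in 2 and 5 in all (12.8%). Of all protein-coding genes, 53.0% were above background in none and 24.9% in all. The 5 Hox genes above background in all were Hoxa5, Hoxa7, Hoxa9, Hoxa10 and Hoxb4. Hoxa5 led per length (75.8 TPM), with 33.8, 60.4 and 109 CPM, and Hoxa10 (33.2 TPM) had 83.9, 36.2 and 31.6 CPM. Hoxa9, a factor of stem cell expansion, had 19.01, 133 and 29.4 CPM, and Hoxb4 had 3.03, 16.8 and 5.19 CPM. No gene of the Hoxc and Hoxd clusters in the list was above background, and Hoxa6, Hoxd9, Hoxd10 and Hoxd13 had 0 counts in all libraries.

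Sphingosine metabolism, which the series is about, was represented unevenly. Sphingosine is made from ceramide, and its phosphate leaves the cell through transporters and acts on receptors that guide blood cell traffic. Of 40 enzymes and transporters, 14 were above background in all libraries (35.0%, against 24.9% of protein-coding genes), 10 in 2, 5 in 1 and 11 in none. Spns2, an exporter of sphingosine 1-phosphate, led at 278 TPM with 437, 498 and 673 CPM. The ceramide synthase Cers2 followed at 114 TPM with 75.8, 279 and 241 CPM, then Ormdl3, a brake on serine palmitoyltransferase, at 95.03 TPM, and Degs1 at 77.5 TPM with 241, 35.3 and 0.129 CPM. Mfsd2b, the exporter of red cells and platelets, had 30.5, 99.2 and 21.2 CPM. Sphk2, one of the kinases that phosphorylate sphingosine, had 22.8, 3.13 and 18.6 CPM (1684, 88 and 576 counts), and Sphk1, the other, was above background in library 2 only (4.02 CPM). Sgpl1, the lyase that ends the pathway, was above background in none, with 0.0675, 0.676 and 1.19 CPM, as were Sgpp2, Acer2, Acer3 and Smpd3. Of 5 receptors, S1pr1 had 258, 17.4 and 370 CPM and S1pr4 0.675, 60.5 and 92.6 CPM, S1pr2 passed in library 2 only, and S1pr3 and S1pr5 were above background in none.

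Genes that oppose or drive ferroptosis, a death by lipid peroxidation that depends on iron, were common. Of 40, 23 were above background in all libraries (57.5%, against 24.9% of protein-coding genes), 4 in 2, 6 in 1 and 7 in none. Fth1, the heavy chain of ferritin, led at 1349 TPM with 1887, 2121 and 2617 CPM, and the light chain Ftl1 had 654, 572 and 696 CPM. Gpx4, the peroxidase that repairs lipid peroxides, had 886, 995 and 977 CPM and 1174 TPM. Acsl4, which loads membranes with polyunsaturated lipid, had 9.44, 100 and 32.8 CPM, and Tfrc, the transferrin receptor, 1.18, 42.2 and 18.0 CPM. Slc7a11, the cystine carrier, was above background in none (0.351, 0.570 and 0.709 CPM), while its partner chain Slc3a2 had 211, 399 and 350 CPM. Of 23 antioxidant genes, 16 were above background in all, with Gpx1 at 2150 TPM, Gpx4 at 1174 TPM and Sod1 at 1138 TPM. Gpx5, Gpx6, Gpx2 and Gpx8 were above background in none.

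Enzymes of glycolysis were mostly present in their common forms and not in those of other tissues. Of 26 glycolytic enzymes, 16 were above background in all, and Gapdh led with 2730, 2060 and 1850 CPM. Ldha was at 352 TPM and Ldhb at 117 TPM. The sperm forms Pgk2, Ldhc and Gapdhs were above background in none. Of 15 glucose carriers and first enzymes, Slc2a1 led at 81.9 TPM, but its CPM were 4.78, 148 and 259, and Slc2a4, the carrier of muscle and fat, was above background in none. Of 18 cytochrome oxidase subunits, 12 were above background in all, and the muscle forms Cox6a2 and Cox8b had 0 counts in all libraries. Among 19 aldehyde dehydrogenases, which stem cell assays read as an activity, 5 were above background in all (26.3%, near the 24.9% of protein-coding genes). Of these, Aldh9a1 (162, 211 and 28.7 CPM) and Aldh1a1 (190, 185 and 12.5 CPM) came first. Of 7 efflux pumps, Abcg2, the pump behind the side population, had 0.959, 77.0 and 54.9 CPM.

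Among genes of chromatin, the histone list had a lead that was close to even between libraries and the Polycomb and DNA methylation lists did not. H3f3b, which encodes histone H3.3, had 6206, 5952 and 5999 CPM and made up 54.8% to 56.2% of the summed TPM of 16 histone genes, while H3f3a, which encodes the same protein, had 236, 137 and 121 CPM. Of 21 Polycomb subunits, 11 were above background in all, with Ezh2 and Phc1 at 41.9 and 40.5 TPM. Ezh2 had 184, 114 and 93.6 CPM and Phc1 192, 96.9 and 8.57 CPM, and without library 1 Phc2 led, and without library 3 or with libraries scaled by edgeR's TMM factors Phc1 did. Of 8 DNA methylation genes, Dnmt1 led with 90.3, 74.1 and 367 CPM, and without library 3 Uhrf1 did. Dnmt3a had 227, 2.46 and 4.70 CPM, and Dnmt3l was above background in none. Of 15 MHC class I genes, 14 were above background in all (93.3%, against 24.9% of protein-coding genes). Among them H2-K1 had 1981, 1788 and 1850 CPM, though H2 genes are alike enough that counts may be split between copies. Of 9 MHC class II genes, 6 were above background in all, led by Cd74 (201, 104 and 280 CPM). Among 21 actins, thymosins and tubulins, Tuba1b led at 2525 TPM, and the muscle forms Acta1, Acta2 and Actc1 were above background in none.

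Few long noncoding RNAs were above background. The lincRNA gene Gm10076 was highest among them per length (1710 TPM), with 329, 384 and 210 CPM. In a list of 19 matched long noncoding and snoRNA host genes, 10 were above background in all and host genes led. Gas5 had 790, 916 and 656 CPM (446 TPM), followed per length by Snhg8, Snhg1 and Snhg5. Malat1 had 24.8, 59.2 and 52.7 CPM, and H19 and Rian were above background in none. Of 5009 lincRNA genes, 30 were above background in all libraries (0.599%), and of 8648 processed pseudogenes 314 were (3.63%). Tpt1-ps3 had 315, 459 and 599 CPM, and as a copy of Tpt1 its counts are uncertain. Of 19 imprinted genes, Grb10 (124, 135 and 196 CPM) was even, Igf2 passed in library 2 only (31.3 CPM), and Mest, Peg3 and H19 were above background in none.

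Agreement between the libraries depended on level. Among the 5433 protein-coding genes above background in all, the median CV was 67.4%, against 2.29% expected from counting alone, and the median gene had a highest library 4.39 times its lowest. In 1622 of them (29.9%) that ratio was at least 10, and in 1130 (20.8%) at most 2. Protein-coding genes with a mean of 1000 CPM or more (134 genes) had a median ratio of 1.40, those at 200 to 500 CPM 1.99, those at 50 to 100 CPM 4.75 and those at 10 to 20 CPM 71.6. Above background in all libraries were 100% of the genes from 200 CPM up, 91.1% at 50 to 100 CPM, 37.7% at 10 to 20 CPM and 8.02% at 1 to 2 CPM. Over the 5433 genes Pearson's r of log2(CPM + 1) was 0.58 between libraries 1 and 2, 0.53 between 1 and 3 and 0.61 between 2 and 3. Within bands of mean CPM, r over the 3 pairs was 0.86 to 0.94 for the 134 genes from 1000 CPM up, 0.17 to 0.37 for 1247 genes at 100 to 1000 CPM, -0.01 to 0.04 for 5641 genes at 10 to 100 CPM and -0.32 to -0.23 for 2413 genes at 1 to 10 CPM. The bands were set on the mean of the same values, which by construction lowers r within them. These are values across genes, which are not independent, and each pair shares the filter. A common biological CV (BCV) of 1.05 was estimated by edgeR over the 7815 genes that passed its filter.

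**Figure D4:**
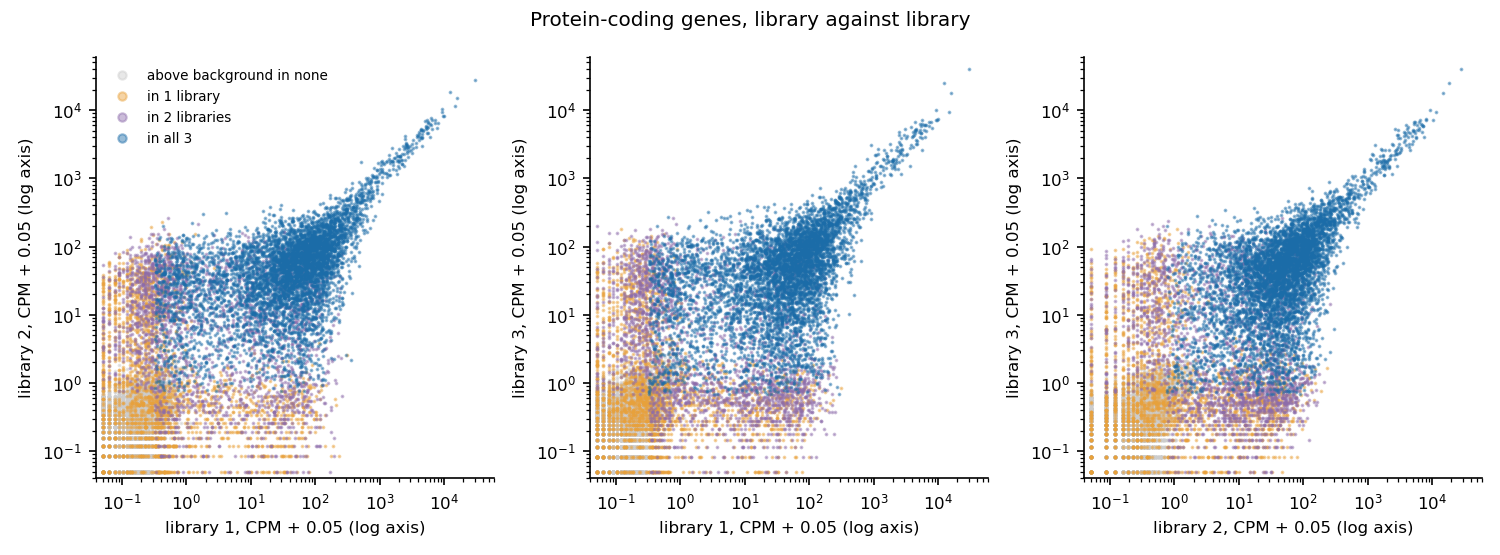
CPM + 0.05 of protein-coding genes in 1 library against another, on log axes, coloured by the number of libraries in which the gene was above background. Genes above about 1000 CPM lie along the diagonal, while genes near 100 CPM in 1 library reach down to background in the other.

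**Figure D5:**
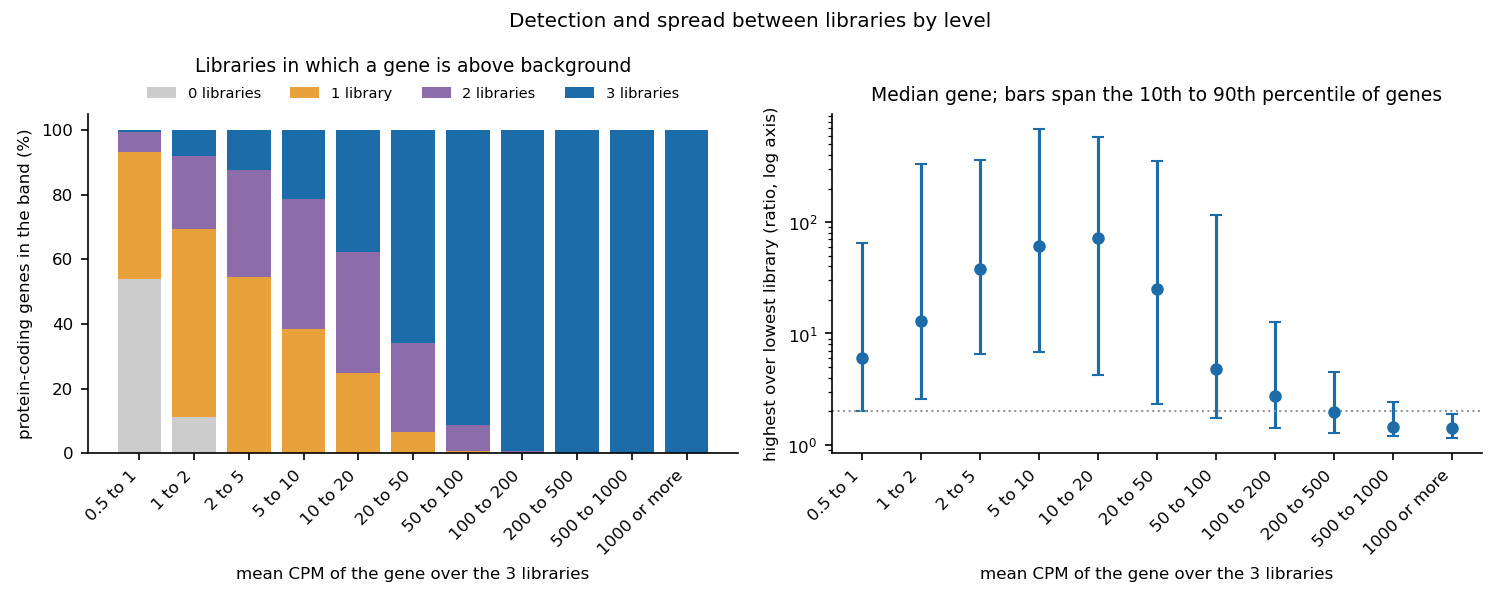
Left, percent of protein-coding genes above background in 0, 1, 2 or 3 libraries by mean CPM; right, the ratio of the highest to the lowest library on a log axis, with the 10th to 90th percentile of genes as bars and a dotted line at 2. The median ratio was 71.6 at 10 to 20 CPM and 1.40 at 1000 CPM or more.

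Some genes were high in 1 library and not called in the others. At least 50 CPM in 1 library and no call above background in the other 2 was found for 239 protein-coding genes. In library 1, Tfdp2, a partner of the E2F factors, had 307.7 CPM against 2.56 and 0.806 CPM, and Mtmr6 had 213.5 CPM against 0.427 and 0.451 CPM. In library 2, Kctd3 had 231.6 CPM against 0.365 and 1.61 CPM, and Vdr, the vitamin D receptor, had 191.1 CPM against 0.230 and 0.709 CPM. In library 3, Gne, an enzyme of sialic acid synthesis, had 178.7 CPM against 0.0675 and 1.03 CPM, and Slx4, a scaffold of DNA repair nucleases, had 144.0 CPM against 0.297 and 0.498 CPM. Some came close to the cut-off in another library. Tfdp2 had 72 counts in library 2 against 76.7, and Kctd3 had 50 counts in library 3 against 57.9. Genes high in 1 library alone occurred in every library. With 1000 cells and no mouse named, differences between mice, between sorts and between amplifications cannot be told apart. Among genes above background in all with a mean of at least 50 CPM, the widest were Exosc3 (0.378, 199 and 53.3 CPM), Chmp1a (0.378, 40.6 and 198 CPM) and Fance (0.581, 8.29 and 273 CPM).

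At the other end, some genes repeated closely. Mean levels of the 10 with the narrowest ratio ran from 80.3 CPM (Prpsap1) to 6052 CPM (H3f3b). Naca, Rpl29 and Rps10 also lay above 1000 CPM. Prpsap1, a regulator of nucleotide precursor synthesis, had 80.9, 80.0 and 79.9 CPM, a ratio of 1.01. Naca, a chaperone of nascent chains, had 1239, 1214 and 1214 CPM, Psma3, a proteasome subunit, 200.3, 197.7 and 206.2 CPM, and Arid1a, a subunit of a chromatin remodeller, 132.2, 138.5 and 137.6 CPM. H3f3b, Rps10, Rpl29, Cstb, Adgrg3 and Rtraf completed the 10 narrowest. They were picked for that ratio, so their narrowness is a description. Spread at equal level also moved with length. Among genes at 20 to 50 CPM, the median CV was 88.0% for exons up to 3007 bases and 101% for those from 7108 bases up. In these groups 77.2% and 53.4% were above background in all libraries. The background threshold rises with exon length, so part of that gap in calls is set by the rule.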

How the data were processed

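RNA of 3 young WT libraries was measured by low-input RNA sequencing. The authors deposited a table of raw read counts for each gene and library. Tools listed by the submitters' processing notes are HTSeq 0.10.0, STAR 2.6.1d, Trim Galore 0.6.2 and edgeR 3.24.3, on mm10. Which annotation they used, and whether reads were counted by strand, is not given in the sources used here. Lines that name no gene were left out of library sizes. Reads outside genes were 6.51%, 11.9% and 12.5% of all counts, and ambiguous reads 5.37% to 5.48%.

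CPM were computed from gene rows, and TPM from merged exon lengths of the GENCODE M21 annotation, which matched 52403 of 52550 identifiers. Background came from 1134 olfactory receptor genes without the densest 1%, which left 1122. Calls needed 20 counts and 5 times background. The libraries held 28088637 to 74021822 counts in genes, so 20 counts were 0.270 to 0.712 CPM. BCV was estimated with edgeR 4.0.16 in R 4.3.3, with TMM factors and filterByExpr. Other values were computed with Python 3.11.15 and pandas 2.3.3. Scripts were tested on simulated data. No group was compared and no test was made, since the rule takes these 3 libraries alone.

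The members and 62 gene lists (909 distinct genes, 1 unmatched) were chosen with earlier results of these data known. Genes were named by a rule: the gate and marker genes, the 20 protein-coding and 5 noncoding genes with the highest TPM, up to 4 leading and 3 absent members of each list, the 10 widest and 10 narrowest genes, and those beside the threshold. Other named genes, among them those above background in 1 library, were picked after their values were seen. Some genes that the rule names are not reported here. Alternatives changed the threshold, depth, scaling, filter, length and libraries. Promoters come from RefSeq (GRCm38.p6).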

Additional observations from a re-analysis of the deposited data

How the results depend on the processing

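No paired analysis was possible because the values come from 1 group and no test. The number of protein-coding genes above background in all libraries lay between 4816 and 5555 across 10 times background, minimums of 10 or 50 counts, a rule of 1 CPM and thinning, against 5433, and at 5385 with genes of at least 50% unique exon, an alternative chosen after seeing the data. Leaving out a library gave 5990 to 6445. The count above background in exactly 1 library, whose alternatives were also added later, lay between 2377 and 2895. With all counts as the denominator, ribosomal protein genes took 22.5%, immediate early genes 3.75% and noncoding genes 1.11%. The median CV was 85.0% for genes of at least 10 CPM, 93.0% for genes with any count, 64.6% to 73.0% with other scalings or thinning, and 53.1% to 65.1% when a library was left out. The BCV was 1.28 with no filter beyond 1 count, 0.915 over genes above background, and 0.973 to 1.09 when a library was left out. The leading member of a list by TPM was kept in 56 of 62 lists with the longest transcript as length, in 60 with TMM factors, and in 54 to 58 when a library was left out. Depth and exon length set the floor. Below 20 counts, or 0.270 to 0.712 CPM, no gene could be called. For long genes the cut-off was higher, as for Tcf4 with 161, 150 and 195 counts in libraries 1, 2 and 3.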

Other observations

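Genes of the sex chromosomes were read unevenly. Ddx3y, a Y-linked helicase, was above background in all libraries, with 10.6, 10.8 and 56.4 CPM. Eif2s3y had 0.554, 99.5 and 0.354 CPM and Kdm5d 0.0811, 0.641 and 43.0 CPM, so each was high in a different library. Uty was above background in none, with at most 0.290 CPM, and neither was Xist, the RNA of the inactive X chromosome, with 1.42, 0.641 and 0.451 CPM.

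Genes of ubiquitin and its relatives were abundant where named here. The polyubiquitin gene Ubb had 3341, 2829 and 2270 CPM. Of the fusions with ribosomal proteins, Rps27a had 2974, 2999 and 4319 CPM and Fau 1135, 1702 and 1733 CPM. Ptprcap, an adaptor of CD45, had 842, 870 and 1284 CPM, although all of its exon bases in the annotation used here overlap another gene.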
